A study of Danio rerio with 12 samples.

Results

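Bisphenol A (BPA) is a building block of polycarbonate and epoxy resins and a weak ligand of estrogen receptors. It was compared as a whole with its solvent in whole zebrafish larvae. The exposed side was made of the 9 libraries of the 3 BPA groups, 0.1, 1 and 4 mg/L with 3 libraries each, entered as the mean of the 3 dose groups, and the other side was the 3 solvent control libraries. All 12 libraries of the series were therefore used. The comparison asks which transcripts were shifted in the mean of the doses, and which of these by a like amount at every dose. A gene shifted at only some doses can miss the threshold. Each library held poly-A RNA of a pool of 10 whole wild-type larvae, of no named strain, at the eleutheroembryo stage at 5 days post fertilization. All 4 groups, the control included, were kept in 0.2% DMSO, the exposed groups with BPA added to the water from day 2 to day 5. Whether the pools came from separate clutches or dishes is not given in the sources used here, so the p-values measure only the spread between pools.

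Total counts were 21.95 to 34.22 M (mega, as in Mb) per library. Counting noise was a small part of the spread within groups (28.3 to 81.2 units of chi-square for each degree of freedom). That check covered 19156 to 19754 genes per pair of libraries, those with at least 60 summed counts, and says nothing of genes with fewer. All 21 cell type marker lists had members among the 22399 genes tested, from 11 for germ cells to 72 for skeletal muscle. Libraries with the same replicate number in the 3 BPA groups deviated from their group means together (correlations 0.233 to 0.513), while same-numbered pairs with a control were at 0.21 to 0.385 for number 1, -0.238 to 0.0023 for number 2 and 0.292 to 0.455 for number 3. In such bulk samples, fewer cells of a type and less RNA per cell cannot be told apart.

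Estrogens act on fish larvae through nuclear receptors that bind DNA at their target genes. The brain aromatase gene cyp19a1b in radial glia is among the most responsive of these targets, and in the adult liver estrogen drives the yolk precursors, the vitellogenins. The larval liver, which is working by the end of the exposure, also makes most plasma proteins: clotting and complement factors, apolipoproteins and the adhesion protein vitronectin. Together with the gut it takes up, conjugates and excretes foreign phenols.

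Against control, 13 genes rose and 0 fell in the mean of the 3 doses (edgeR quasi-likelihood test, Benjamini-Hochberg adjusted p under 0.05), which is 0.058% of the genes tested. The 13 genes were cyp19a1b; the plasma protein genes vtna, vtnb, CPN2, f2 and c8g; the methionine and folate cycle genes mat1a and mthfd1a; the transporter and channel genes slc41a2a, slc51a and aqp11; tmem110l; and zgc:194626. Of these, 11 met the definition used here of a like shift at every dose. By that definition the log2 fold change has the same sign at all 3 doses, and its smallest value is at least 0.5 of its largest. These 11 genes had log2 fold changes of 0.59 to 2.15 in the mean of the doses, or 1.51 to 4.63-fold. Over all genes tested, called or not, 19.3% met this rule on sign and size. The call on the mean of these doses, which share the controls, itself makes the same sign likely. The 11 of 13 is therefore no evidence of its own. At an unadjusted p under 0.05, 1303 genes were higher (5.82%) and 1211 were lower (5.41%), and limma-voom called 23 higher and 3 lower while DESeq2 called 242 and 82. With the replicate number as a block, which pairs same-numbered libraries, edgeR called 453 higher and 267 lower. Not every same-numbered pair with a control deviated together, so that pairing is a hint from the data. The median log2 fold change of all genes tested was -0.01, with 10657 of the 22399 above 0.

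**Figure D1:**
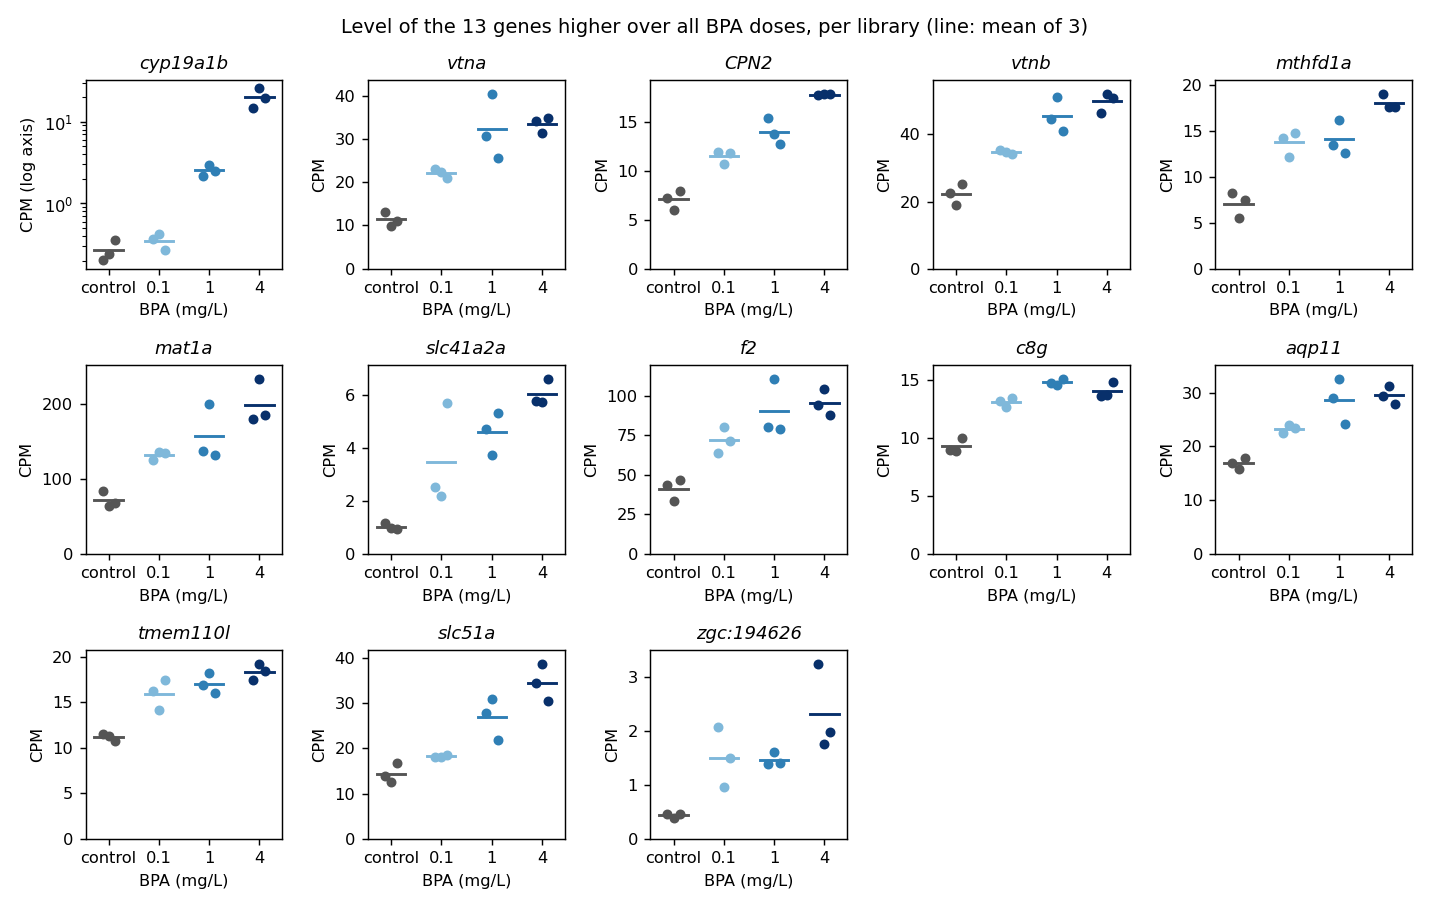
Level of each of the 13 genes that rose in the mean of the doses, in counts per M counts (CPM), with 1 point per library, a line at the mean of each group of 3 and a log axis for cyp19a1b. For 12 of the 13 genes all 9 exposed libraries lie above all 3 controls; the exception is cyp19a1b, whose 0.1 mg/L libraries overlap the controls.

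The gene with the lowest p was cyp19a1b (ENSDARG00000098360), the aromatase of the brain, an enzyme of estrogen synthesis, which the files type as an unprocessed pseudogene. It read 0.204, 0.243 and 0.357 CPM in the controls (counts per M counts of the library, after TMM scaling) and 0.368, 0.419 and 0.268 at 0.1 mg/L. At 1 mg/L it read 2.18, 2.92 and 2.5 CPM and at 4 mg/L 14.6, 25.5 and 19.5. The lowest dose thus overlapped the controls, while every library of the 2 higher doses lay above every library of the groups below it. Its log2 fold change in the mean of the doses was 3.33 (SE 0.29, adjusted p = 0.00107), made of 0.47, 3.28 and 6.25 at 0.1, 1 and 4 mg/L. The ratio of the smallest to the largest was 0.0748, so cyp19a1b rose in the mean of the doses without being alike at every dose.

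Other genes that estrogens are known to act on were read in the same comparison. lhb (ENSDARG00000099363), the beta subunit of luteinizing hormone from the pituitary, had 0, 1 and 0 counts in the controls and 6, 9 and 1 counts at 0.1 mg/L. It had 27, 31 and 20 counts at 1 mg/L and 21, 48 and 34 counts at 4 mg/L. Its adjusted p was 0.0512, just outside the threshold, and its fitted log2 fold change of 5.11 (SE 0.82) depends on the prior count because the controls held 1 count in all. f13a1a.1 (ENSDARG00000045453) encodes an A chain of factor XIII, which cross-links fibrin. Its 0.1 mg/L libraries lay on both sides of the control range, and all libraries of the higher doses were far above it. f13a1a.1 had 4 counts summed over the controls and 4 over the 0.1 mg/L libraries, so these low levels and its fold change rest on few counts. It read 0.0583, 0.0347 and 0.0511 CPM in the controls and 0.0669, 0.0599 and 0 at 0.1 mg/L, against 1.64, 4.38 and 4.40 at 1 mg/L and 2.6, 7.87 and 2.34 at 4 mg/L (log2 fold change in the mean of the doses 4.09, SE 1.07, adjusted p = 0.201). The yolk precursor gene vtg1 had 3, 9, 11 and 32 counts summed over the 3 libraries of the control and the 3 rising doses, too few to enter the test, and copies of vitellogenin can share reads. The estrogen receptor gene esr1 had a log2 fold change of 0.76 (SE 0.44, adjusted p = 0.53). Of the 20 genes in the estrogen response list 9 were tested, of which 8 were above 0 and 1 was called (cyp19a1b), against 0.058% of all genes tested. The median log2 fold change of the list was 0.76, the value of esr1 itself, which had 16, 32, 29 and 30 summed counts in control and rising doses. By dose the list median was 0.41, 0.76 and 0.64 at 0.1, 1 and 4 mg/L. In the mean of the doses it was 0.44 without control 2 and 1.68 where genes had to reach 1 CPM in 3 libraries. The summed level of the list was 211.9 to 223.3 CPM in the controls and 207.8 to 215.3 at 0.1 mg/L. It was 203 to 254.4 CPM at 1 mg/L and 243.8 to 274.4 at 4 mg/L.

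Genes for proteins of the blood plasma made up the largest group among those that rose. Both vitronectin genes rose; vitronectin is a plasma and matrix protein that binds integrins and restrains complement and clotting. vtna (ENSDARG00000055388) read 13.1, 9.92 and 11 CPM in the controls, 23.0, 22.3 and 21.0 at 0.1 mg/L, 30.6, 40.4 and 25.6 at 1 mg/L and 34.1, 31.3 and 34.9 at 4 mg/L. Its lowest exposed library was well above its highest control, and its level in the exposed libraries was 2.58 times the control level (log2 fold change 1.34, SE 0.14, adjusted p = 0.00396). By dose its log2 fold change was 0.96, 1.5 and 1.56. vtnb (ENSDARG00000053831) read 22.6, 19 and 25.3 CPM in the controls, 35.4, 34.7 and 34.1 at 0.1 mg/L, 44.7, 51.2 and 41.0 at 1 mg/L and 46.4, 52.2 and 51.0 at 4 mg/L. It too had no overlap between exposed and control libraries, at 1.95-fold (log2 fold change 0.95, SE 0.11, adjusted p = 0.00586), with the 0.1 mg/L libraries below all 6 of the higher doses.

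CPN2 (ENSDARG00000063518), the regulatory subunit of carboxypeptidase N, which trims kinins and complement fragments in plasma, rose 2.04-fold. It read 7.2, 6.04 and 7.97 CPM in the controls, 11.9, 10.7 and 11.8 at 0.1 mg/L, 15.4, 13.7 and 12.8 at 1 mg/L and 17.7, 17.9 and 17.8 at 4 mg/L. The 4 groups did not overlap with each other at any step (log2 fold change 1.01, SE 0.11, adjusted p = 0.00396). f2 (ENSDARG00000036041), prothrombin, the precursor of the protease that forms fibrin clots, read 43.7, 33.2 and 46.4 CPM in the controls and 63.6 to 111 CPM in the 9 exposed libraries. Its log2 fold change was 1.05 (SE 0.14, adjusted p = 0.0227). c8g (ENSDARG00000032098), the gamma chain of complement component 8, had the smallest rise of the 13. It read 8.98, 8.92 and 10.0 CPM in the controls, 13.2, 12.7 and 13.4 at 0.1 mg/L, 14.8, 14.6 and 15.1 at 1 mg/L and 13.6, 13.8 and 14.9 at 4 mg/L. Its log2 fold change was 0.59 (SE 0.08, adjusted p = 0.0287), by dose 0.50, 0.68 and 0.60, with the smallest and largest the closest of any gene that rose (ratio 0.737).

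The liver lists as a whole stood higher in the exposed larvae. Of 61 tested hepatocyte markers 54 were above 0 and 5 were called (vtna, vtnb, CPN2, mat1a and f2), against 0.058% of all genes tested. In 17 (27.9%) all 9 exposed libraries lay above all 3 controls, against 1.75% of all genes tested. Like the other lists, this one was written with earlier results of these data known, so the shares describe it and test nothing. Its median log2 fold change was 0.62 in the mean of the doses and 0.46, 0.79 and 0.53 by dose. The summed level of the markers was 10900 to 13950 CPM in the controls and 13240 to 16690 CPM in the exposed libraries, so the ranges met, and f10 was the hepatocyte marker with 0 counts in every library. Whether more liver RNA per larva goes with the rise of single liver genes was not tested. In the complement and acute phase list 41 of 46 tested genes were above 0, and the median was 0.63. In that list 2 were called (c8g and zgc:194626), against 0.058% of all genes tested. In 10 (21.7%) all 9 exposed libraries lay above all 3 controls, against 1.75% of all genes tested. Members that did not pass the threshold included the fibrinogen alpha gene fga at 0.96 (adjusted p = 0.174), the anticoagulant protein C gene proca at 0.94 (adjusted p = 0.134) and the complement regulator cfh at 1.33 (adjusted p = 0.13). Against the direction of the list in the mean of the doses, the hepatocyte markers serpina7, the thyroid hormone carrier, and ahsg2 had log2 fold changes of -0.06 and -0.09, and the acute phase gene saa had -0.69. For serpina7 that mean hid a change of sign, with 0.12, 0.74 and -1.06 at 0.1, 1 and 4 mg/L. The hepatocyte median fell to 0.38 and the complement median to 0.40 without control 2, the library with the lowest median level of hepatocyte markers.

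**Figure D2:**
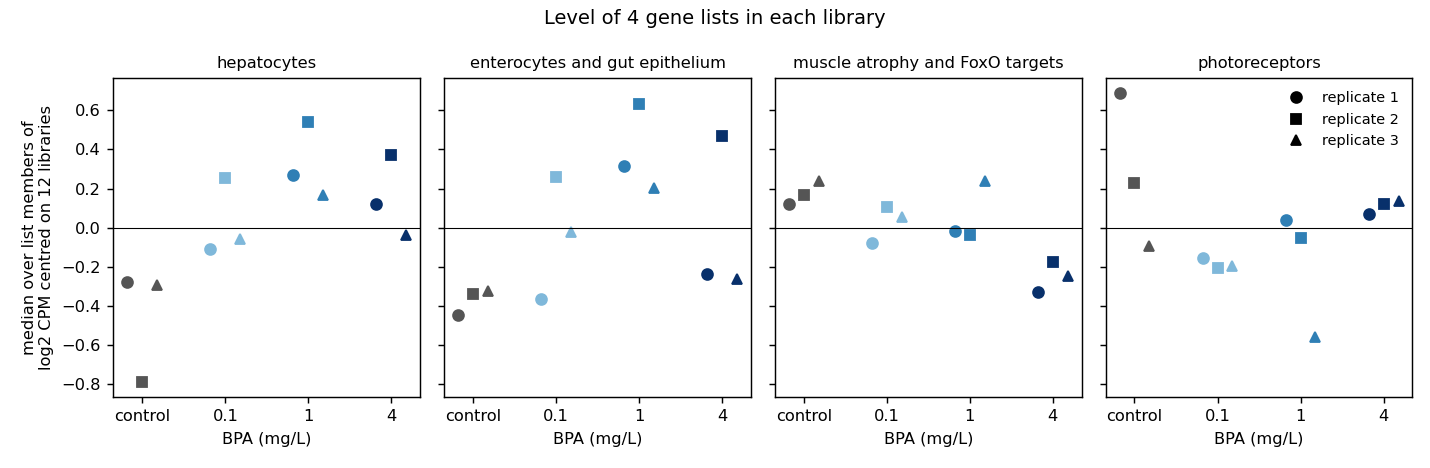
Median of the centred log2 CPM over the members of each list shown, with 1 point per library. In the hepatocyte list control 2 is lowest at -0.79, and 1 mg/L library 2 is highest at 0.54; the 4 mg/L libraries run from -0.04 to 0.37.

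Both enzymes that rose in one-carbon metabolism lie on the route that supplies methyl groups. mat1a (ENSDARG00000039605), the liver enzyme that makes S-adenosylmethionine, read 83.8, 63.7 and 67.1 CPM in the controls, 125, 135 and 134 at 0.1 mg/L, 138, 199.8 and 132 at 1 mg/L and 179, 233 and 184 at 4 mg/L. Exposed and control libraries did not overlap (log2 fold change 1.16, SE 0.16, adjusted p = 0.0224; by dose 0.88, 1.13 and 1.48). mthfd1a (ENSDARG00000018266), a trifunctional enzyme that interconverts one-carbon forms of folate, read 8.25, 5.48 and 7.46 CPM in the controls, 14.3, 12.2 and 14.8 at 0.1 mg/L, 13.5, 16.2 and 12.7 at 1 mg/L and 19.1, 17.6 and 17.6 at 4 mg/L. Here the 0.1 and 1 mg/L libraries overlapped, and the log2 fold change was 1.11 (SE 0.14, adjusted p = 0.0114). Of the 39 tested genes of the folate and methionine cycle 29 were above 0, with a median log2 fold change of 0.15, or 0.24 without control 2. In 8 (20.5%) all exposed libraries lay above the controls, against 1.75% of all genes tested. Among those that were apart but not called, shmt1 and dhfr, which feed one-carbon units into thymidylate synthesis, stood at 0.33 and 0.37 on the log2 scale, with adjusted p of 0.322 and 0.304.

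The largest fold change among the genes that were alike belonged to slc41a2a (ENSDARG00000075803), a magnesium transporter gene. It read 1.17, 0.971 and 0.919 CPM in the controls, 2.54, 2.18 and 5.71 at 0.1 mg/L, 4.73, 3.76 and 5.35 at 1 mg/L and 5.80, 5.74 and 6.63 at 4 mg/L. Library 3 of 0.1 mg/L was well above the others of its group and fell among the higher doses. The rise was 4.63-fold (log2 fold change 2.15, SE 0.30, adjusted p = 0.0227), with 1.74, 2.15 and 2.55 by dose. Without library 3 of 0.1 mg/L the log2 fold change in the mean of the doses was 1.97. The value of slc41a2a at 0.1 mg/L, and so its standing as alike, leaned on that library. slc51a (ENSDARG00000045306), the alpha subunit of the basolateral transporter that exports bile acids and steroid conjugates from gut and liver cells, read 13.9, 12.5 and 16.9 CPM in the controls, 18, 18.2 and 18.5 at 0.1 mg/L, 27.9, 31.0 and 21.8 at 1 mg/L and 34.5, 38.7 and 30.5 at 4 mg/L. The lowest dose lay just above the controls, so that with 0.34, 0.91 and 1.27 by dose (ratio 0.271) slc51a was not alike although its mean passed the threshold (log2 fold change 0.84, SE 0.13, adjusted p = 0.0457). aqp11 (ENSDARG00000100555), an intracellular aquaporin, read 16.9, 15.8 and 17.8 CPM in the controls and 22.6 to 32.6 CPM in the exposed libraries (log2 fold change 0.68, SE 0.10, adjusted p = 0.0382).

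The remaining genes that rose were zgc:194626 and tmem110l. zgc:194626 (ENSDARG00000104654), which the RefSeq gene table of the assembly GRCz12tu names leap2, a liver-expressed antimicrobial peptide, read 0.467, 0.382 and 0.460 CPM in the controls and 2.07, 0.958 and 1.49 at 0.1 mg/L. It read 1.39, 1.62 and 1.4 CPM at 1 mg/L and 3.25, 1.75 and 1.98 at 4 mg/L, a 4.05-fold rise with wide spread inside the 0.1 and 4 mg/L groups (log2 fold change 1.98, SE 0.31, adjusted p = 0.0457). tmem110l (ENSDARG00000045518), a gene for a transmembrane protein, had tight groups. It read 11.5, 11.3 and 10.8 CPM in the controls, 16.3, 14.2 and 17.5 at 0.1 mg/L, 16.9, 18.2 and 16 at 1 mg/L and 17.5, 19.2 and 18.4 at 4 mg/L (log2 fold change 0.61, SE 0.09, adjusted p = 0.0449).

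Most of these calls depended on single libraries, mainly controls. cyp19a1b passed the threshold in all 12 fits with 1 library left out. It missed it, as did the other 12 genes, where the 9 exposed libraries were fitted as 1 group, where the 4 mg/L group was left out, and where only libraries numbered 1 and 2 were used (adjusted p of cyp19a1b up to 0.324). CPN2 (adjusted p = 0.0904) and vtnb (0.101) missed it only without control 2, and vtna, mthfd1a and mat1a only without control 2 (adjusted p 0.101, 0.12 and 0.274) or control 3 (0.0699, 0.0775 and 0.15). f2 missed it without control 1, 2 or 3 or 4 mg/L library 2 (adjusted p = 0.132, 0.274, 0.0775 and 0.0571), and slc41a2a without control 1, 2 or 3, 1 mg/L library 1 or 4 mg/L library 2 (0.142, 0.274, 0.131, 0.0538 and 0.0553). zgc:194626, c8g, aqp11, tmem110l and slc51a passed in only 3, 2, 2, 2 and 1 of the 12 fits, with adjusted p up to 0.375. All 5 missed it without any 1 of the controls and passed without 1 mg/L library 3. Beyond that fit, zgc:194626 passed without 0.1 mg/L library 2 and without 4 mg/L library 1, c8g without 0.1 mg/L library 3, aqp11 without 1 mg/L library 2 and tmem110l without 0.1 mg/L library 2. Leaving out control 2 gave 1 called gene, control 3 gave 3 and control 1 gave 8; leaving out 1 mg/L library 1 gave 7, 4 mg/L library 2 gave 6 and 1 mg/L library 3 gave 32. The log2 fold changes moved little, from 1.25 to 1.46 for vtna and from 3.15 to 3.53 for cyp19a1b. Beyond these left-out fits, 12 others changed the tool, scaling, filter, model or groups used. In them c8g and zgc:194626 passed the threshold in 6, tmem110l in 7, slc51a in 8 and each of the other called genes in 9. Upper-quartile scaling called 9 genes.

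The question of a like shift at every dose was taken up through the doses themselves, whose 3 comparisons share the same controls. Tested one dose at a time, edgeR called 0 genes at 0.1 mg/L; there 584 (2.61%) were higher and 539 (2.41%) lower at an unadjusted p under 0.05, and DESeq2 called 32 and limma-voom 0. It called 15 genes at 1 mg/L (0.067%), 14 of them higher (0.0625%), and 63 at 4 mg/L (0.281%), 38 of them higher (0.17%). At an unadjusted p under 0.05 the shares were 5.59% higher and 3.18% lower at 1 mg/L, and 5.8% higher and 6.61% lower at 4 mg/L. At 0.1 mg/L the adjusted p of the 13 genes was 0.506 to 0.99. Of the 13 genes, 12 had their largest log2 fold change at 4 mg/L, and c8g had it at 1 mg/L. A test of any difference among the 3 doses called 1 gene of 22399 (0.00446%), cyp19a1b (adjusted p = 1.02e-06). Its contrast leaves out the controls, which still enter the scaling and the shared estimate of the spread. With the replicate number as a block, which pairs the dose libraries, the test called 15 (0.067%), among them cyp19a1b (adjusted p = 2.53e-07), f13a1a.1 (0.012), the antioxidant enzyme gene prdx1 and the muscle ubiquitin ligase gene fbxo32 (both 0.0468). For the other 12 genes that rose, the adjusted p for a difference among the doses was 0.309 to 0.998, and 0.102 to 0.609 with the block.

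A p that misses the threshold does not show that the doses were equal, so the step from 0.1 to 4 mg/L was also given with its 95% interval, not adjusted over genes. The intervals came from the fit without the replicate block, so they leave out the pairing of the dose libraries. The step was 5.79 on the log2 scale for cyp19a1b (5.19 to 6.38), 0.92 for slc51a (0.60 to 1.25), 0.81 for slc41a2a (0.18 to 1.44) and 0.63 for CPN2 (0.37 to 0.90). For vtna it was 0.60 (0.26 to 0.94), for mat1a 0.60 (0.21 to 0.98) and for vtnb 0.52 (0.25 to 0.79). The interval included 0 for zgc:194626, tmem110l and c8g, the last at 0.10 (-0.11 to 0.32), and lay above 0 for the other 10 genes. The 2 genes just inside the bound of 0.5 were CPN2 (ratio 0.526) and vtnb (0.552), and the 2 just outside were slc51a (0.271) and cyp19a1b (0.0748). With a bound of 0.75, 0 of the 13 genes were alike, and with the same sign as the only condition all 13 were.

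**Figure D3:**
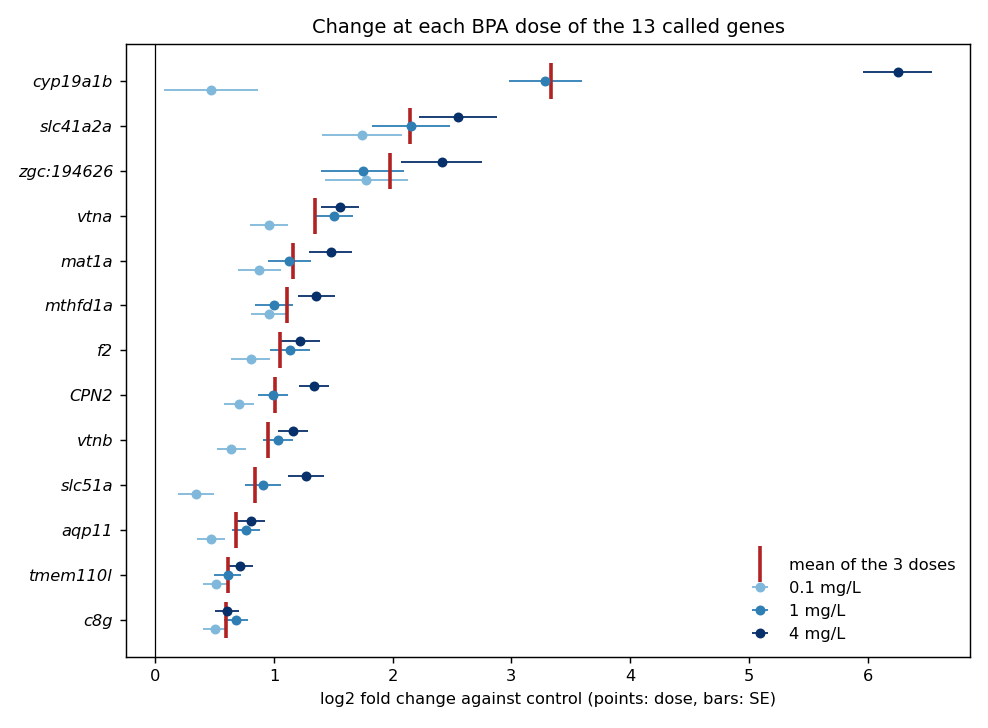
Log2 fold change against control of each gene that rose, at 0.1, 1 and 4 mg/L, with its standard error. cyp19a1b climbs from 0.47 to 6.25, while c8g stays between 0.50 and 0.68.

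Several genes with flatter dose profiles than any called gene missed the threshold, those given here with adjusted p of 0.0744 to 0.113. They were picked after their values were seen. gatm (ENSDARG00000036239), the first enzyme of creatine synthesis, read 198, 198 and 206 CPM in the controls, 306, 350 and 298 at 0.1 mg/L, 323, 323 and 311 at 1 mg/L and 269, 375 and 308 at 4 mg/L. All exposed libraries were above the controls, with log2 fold changes of 0.66, 0.67 and 0.66 by dose (ratio 0.988; mean of the doses 0.66, SE 0.12, adjusted p = 0.0744). abca1b (ENSDARG00000079009), a cholesterol exporter that loads apolipoprotein A-I, read 59.4, 57.8 and 44.5 CPM in the controls and 73.0 to 89.3 CPM in the exposed libraries, with 0.60, 0.62 and 0.64 by dose (mean 0.62, SE 0.11, adjusted p = 0.0744). Others of this kind, with ratios of 0.814 and 0.816, were hao1, a peroxisomal enzyme of glyoxylate metabolism (log2 fold change 0.99, adjusted p = 0.0906), and csad, an enzyme of taurine synthesis (0.52, adjusted p = 0.113).

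Lipid transport genes were mostly above 0, with none past the threshold. apoa1a (ENSDARG00000012076), the main protein of high-density lipoprotein, read 613, 658 and 829 CPM in the controls, 1278, 1310 and 2067 at 0.1 mg/L, 1263, 1784 and 1937 at 1 mg/L and 1725, 2272 and 2933 at 4 mg/L. There was no overlap between exposed and control libraries, but the spread inside each dose was wide (log2 fold change 1.37, SE 0.23, adjusted p = 0.0622). apoba (ENSDARG00000042780), an apolipoprotein B gene, read 90.3, 27.6 and 48.2 CPM in the controls and 103 to 226 CPM in the exposed libraries (log2 fold change 1.49, adjusted p = 0.113), with control 1 near the lowest exposed library. Of the 49 genes of the list for lipoproteins and lipid transport 38 were above 0. In it 0 were called by edgeR (18 higher and 2 lower at an unadjusted p under 0.05, against 5.82% and 5.41% of all genes tested). In 10 (20.4%) all exposed libraries lay above the controls, against 1.75% of all genes tested. In 1 (2.04%) they lay below, against 1.03%. The median log2 fold change of the list was 0.35 in the mean of the doses. apoc2, the activator of lipoprotein lipase (0.98), and apoa4a (1.01) were among those 10.

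The gut and bile acid lists moved in the same direction. They share members such as slc51a, and the gut list shares others such as apoa4a with the lipid transport list. The gut list also shares cubn, lrp2a and cdh17 with the kidney markers, and the hepatocyte and folate lists share mat1a. The lists are therefore not independent of each other. Of 54 tested enterocyte markers 51 were above 0, with a median log2 fold change of 0.52, and 1 was called (slc51a), against 0.058% of all genes tested. In 10 (18.5%) all exposed libraries lay above the controls, against 1.75% of all genes tested. By dose the median was 0.42, 0.80 and 0.31, and the summed level was 7360 to 10040 CPM in the controls against 9426 to 15610 CPM in the exposed libraries, with no marker at 0 in every library. Single libraries differed as much as the groups: the median of the list in libraries 1, 2 and 3 was -0.23, 0.47 and -0.26 at 4 mg/L, and -0.44, -0.34 and -0.32 in the controls. Whether gut RNA moves with the rise of slc51a was not tested. All 24 tested genes of bile acid synthesis and transport were above 0, with a median of 0.60. There slc51a was again the 1 gene called, against 0.058% of all genes tested. abcb11a, the canalicular bile salt pump, had a log2 fold change of 1.33 (adjusted p = 0.205), and cyp7a1, the rate-limiting enzyme of bile acid synthesis, had 0.76 (adjusted p = 0.415). By dose cyp7a1 had 0.59, 1.48 and 0.20.

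Genes that handle foreign compounds were mostly above 0, and edgeR called none of them. In cytochrome P450 families 2 and 3, 27 of 35 tested genes were above 0, with a median log2 fold change of 0.45, by dose 0.32, 0.69 and 0.26, and 0.28 without 4 mg/L library 2. Of these genes edgeR called 0, and 15 were higher at an unadjusted p under 0.05, against 5.82% of all genes tested. cyp2y3 had the lowest p of the list at 0.64 (adjusted p = 0.0744), and cyp2aa9, at 1.76 (adjusted p = 0.113), had 1.96, 1.63 and 1.71 by dose. Of the 53 phase II conjugation genes 42 were above 0 and edgeR called 0, with a median of 0.27. At an unadjusted p under 0.05, 24 were higher and 0 lower, against 5.82% and 5.41% of all genes tested. ugt1a1, a glucuronosyltransferase that conjugates bilirubin and phenols in mammals, had 0.86 (adjusted p = 0.147). DESeq2 called cyp2y3, cyp2aa9 and ugt1a1, and limma-voom called cyp2y3. The 14 genes of the aryl hydrocarbon receptor battery were centred at -0.03, which was 0.12 without control 1 and -0.16 without control 3. The battery had 4 genes higher and 3 lower at an unadjusted p under 0.05, against 5.82% and 5.41% of all genes tested. Its reporter gene cyp1a read 13.1, 13 and 13.8 CPM in the controls, 11.7, 25.8 and 16.4 at 0.1 mg/L, 19.8, 32.6 and 19.4 at 1 mg/L and 15.4, 28.4 and 13.7 at 4 mg/L. In each dose group library 2 was the highest, and the log2 fold change was 0.60 (SE 0.27, adjusted p = 0.433). In the oxidative stress list, with a median of 0.18 over 34 genes (0.12 without control 1), prdx1 had 0.41, 0.50 and 1.42 by dose (mean 0.78, adjusted p = 0.0744).

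On the lower side edgeR called 0 genes in the mean of the doses, against 1211 at an unadjusted p under 0.05, 82 called by DESeq2 and 3 by limma-voom. With the replicate number as a block edgeR called 267 lower, though not every same-numbered pair with a control deviated together. The genes given here were picked after their values were seen; DESeq2 called all 4 of them, and limma-voom called CT826376.1. fbxo32 (ENSDARG00000040277), the ubiquitin ligase atrogin-1 of muscle protein breakdown, read 71.4, 61.3 and 72.3 CPM in the controls, 32.7, 61.0 and 47.0 at 0.1 mg/L, 46, 33.4 and 61.1 at 1 mg/L and 12.4, 15.2 and 18 at 4 mg/L. All exposed libraries were below the controls, library 2 of 0.1 mg/L and library 3 of 1 mg/L only just, and the mean rested on the highest dose (log2 fold change -1.09, SE 0.19, adjusted p = 0.0622; by dose -0.54, -0.55 and -2.17). trim63a (ENSDARG00000028027), the companion ligase of the MuRF family, had -0.46, -0.48 and -1.86 by dose (mean -0.93, adjusted p = 0.113) and overlapped the controls. A flat profile was found instead in akap12a (ENSDARG00000091792), a scaffold for protein kinase A. It read 55.2, 48.6 and 53.9 CPM in the controls, 31.4, 33.0 and 41.7 at 0.1 mg/L, 40.2, 37.3 and 31.3 at 1 mg/L and 35.8, 36 and 32.9 at 4 mg/L. The log2 fold change was -0.57, -0.53 and -0.59 by dose with no overlap (mean -0.57, SE 0.10, adjusted p = 0.0906). CT826376.1 (ENSDARG00000056806), named pde5aa in the RefSeq gene table of GRCz12tu, a phosphodiesterase gene that breaks down cyclic GMP, read 10.5, 9.96 and 8.43 CPM in the controls and 4.76 to 7.24 CPM in the exposed libraries (log2 fold change -0.75, adjusted p = 0.0622).

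Of the 52 tested genes of muscle atrophy and FoxO targets 45 were below 0 and 0 were past edgeR's threshold. At an unadjusted p under 0.05, 17 were lower, against 5.41% of all genes tested. The median log2 fold change of the list was -0.21, which was -0.15, -0.10 and -0.36 by dose and -0.11 without the 4 mg/L group. Skeletal muscle markers had a median of -0.12, by dose -0.02, 0.04 and -0.34, which turned to 0.02 without control 3 and 0.01 without the 4 mg/L group and was -0.23 without control 1. They had a summed level of 99210 to 166300 CPM in the controls and 77760 to 143500 CPM in the exposed libraries. Photoreceptor markers were the cell type list with the lowest median, -0.40 (-0.49, -0.46 and -0.24 by dose). In it 31 were lower at an unadjusted p under 0.05, against 5.41% of all genes tested. Of its 68 tested members 65 were below 0, and edgeR called 0. In 5 (7.35%) all exposed libraries lay below the controls, against 1.03% of all genes. Their summed level was 5927 to 10760 CPM in the controls and 5008 to 7678 CPM in the exposed libraries, and opn1mw4, a green opsin gene, was the marker with 0 counts throughout. abca4b, the retinoid transporter of photoreceptor discs, had log2 fold changes of -0.91, -0.81 and -0.50 by dose (mean -0.74, adjusted p = 0.134), and the green opsin gene opn1mw2 had a mean of -0.70 (adjusted p = 0.139). The controls themselves disagreed on this list, with medians of 0.69, 0.23 and -0.10 in libraries 1, 2 and 3, and the log2 fold change median ran from -0.16 without control 1 to -0.56 without control 3.

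**Figure D4:**
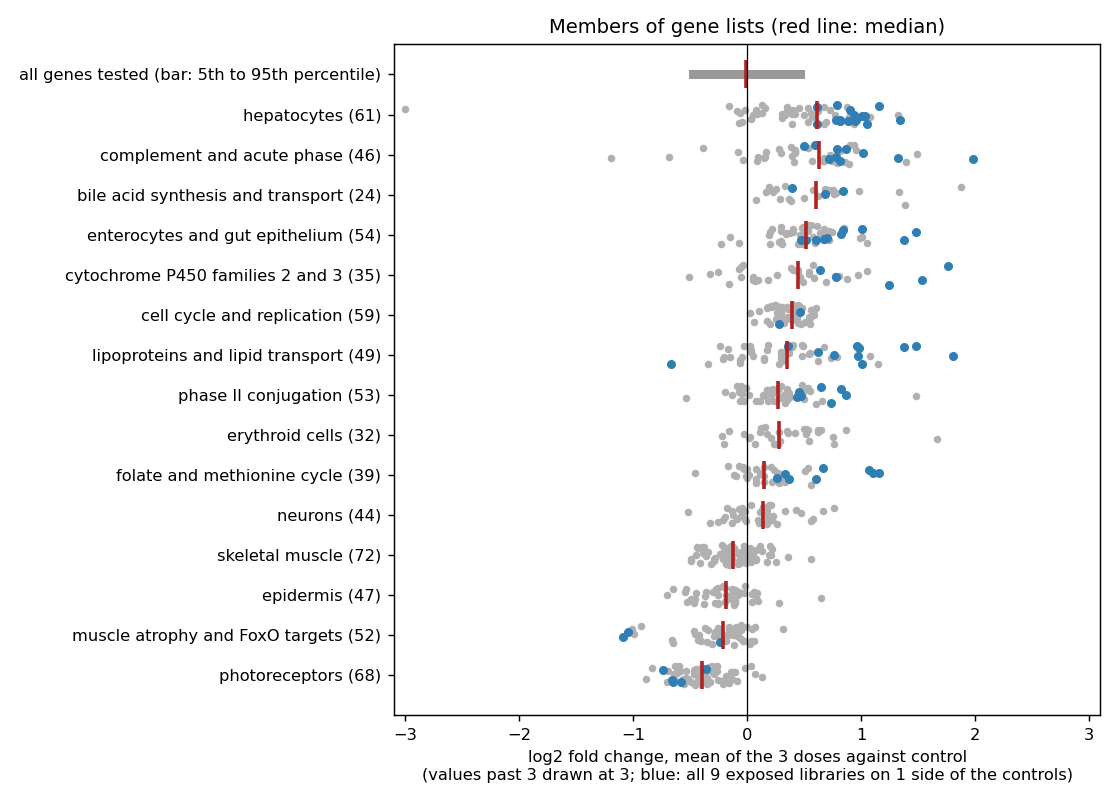
Log2 fold change in the mean of the 3 doses against control of each tested member of 15 gene lists (points; blue where all 9 exposed libraries lie on 1 side of the controls), with the list median as a red line. The medians of the complement list (0.63) and the hepatocyte list (0.62) lie farthest to the right of those drawn and that of photoreceptors (-0.40) farthest to the left, with all genes tested at -0.01.

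Counted by libraries alone, 623 genes (2.78%) had all 9 exposed libraries on 1 side of all 3 controls, 392 above (1.75%) and 231 below (1.03%). The genes called were 12 of these, which the call itself makes likely.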

How the data were processed

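Poly-A RNA was sequenced from 12 pools of 10 larvae as pairs of 76 base reads. The submitters' processing notes list the assembly GRCz10, the aligner STAR 2.5.1b, the quantifier RSEM 1.2.28, DESeq2 1.10.1 and CASAVA; what each tool did, and its settings, is not given in the sources used. The authors deposited whole-number counts per gene, not normalized, for 31540 genes, of which 4137 had 0 in every library. The design assumed estimated counts to be rounded, but 0 values were not whole. Reads of near-identical copies may be shared between them.

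Groups and replicate numbers came from the sample titles. Genes were kept with edgeR's filterByExpr (minimum count 10, minimum total 15; 22399 genes) and scaled by TMM. A quasi-likelihood model with group as its term (edgeR 4.0.16 in R 4.3.3) was fitted to all 12 libraries. The mean of the 3 doses minus control, each dose minus control and any difference among the doses were tested two-sided. P-values were adjusted over the 22399 genes by the Benjamini-Hochberg method, with a threshold of 0.05. The standard error is the log2 fold change over the square root of F. The 27 pathway lists and 21 cell type lists are described by counts and medians, without a test.

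Genes were named by rule: the endocrine and cyp1a reporters, the largest 15 alike and 5 not alike per direction among called genes, up to 4 called members of each list or the member with the lowest p, and 2 genes on each side of the bound of 0.5. Other list members, and genes named as picked after their values were seen, stand outside the rule. The comparison, members and lists were chosen with earlier results of these data known. Alternatives were DESeq2 1.42.0, limma-voom (limma 3.58.1), other scalings and filters, a replicate block, and left-out libraries and dose groups.

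Every same-numbered pair of dose libraries had a correlation of deviations above 0.1 (0.233 to 0.513), so the numbers were taken to pair the doses. With controls not every pair did: pairs numbered 1 and 3 were at 0.21 to 0.455 and those numbered 2 at -0.238 to 0.0023. Simulated counts for this contrast held 200 changed genes among 22399. For changes of 1.5, 2, 4 and 8-fold, edgeR found 23.3%, 72%, 94.7% and 96.7%, and 5.08% of its calls were false. DESeq2 found 38%, 80%, 95.3% and 96.7%, and 18% of its calls were false. The simulated libraries were independent of each other and drawn with edgeR's own estimates of the spread, so these rates need not hold for the real libraries.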

Additional observations from a re-analysis of the deposited data

How the results depend on the processing

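Over the alternatives, 88 counts were within 1.5 times the value reported and 80 were not; the cause was not tested unless given. At an adjusted p under 0.01, 4 genes were called for all doses together, 3 of the alike genes, 2 at 1 mg/L and 16 at 4 mg/L. DESeq2 called 324 for all doses, of which 211 alike, 73 among the doses, and 32, 278 and 487 at 0.1, 1 and 4 mg/L. On the simulated counts its false calls were the higher, which need not hold for the real libraries. limma-voom called 26, of which 21 alike, and 3 at 1 mg/L. Upper-quartile scaling gave 9 for all doses and 6 at 1 mg/L. Without a filter on low counts 20 genes were called for all doses and 4 among the doses. An alike bound of 0.75 left 0 genes. The 9 exposed libraries fitted as 1 group gave 0 called genes (2463 at an unadjusted p under 0.05), and only the 6 libraries compared gave 3 at 1 mg/L.

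Without the 0.1 mg/L group, 3 genes were called at 1 mg/L, 35 at 4 mg/L, and 1269 were apart. Without the 1 mg/L group, 20 were called for all doses, 2 among the doses, and 1035 were apart. Without the 4 mg/L group, 0 were called (1902 at an unadjusted p under 0.05), 0 were alike, 2 differed among the doses, 3 were called at 1 mg/L and 1105 were apart. Only the libraries numbered 1 and 2, an alternative chosen after seeing the data, gave 0 called and 0 alike genes (3228 unadjusted), 2 among the doses, 0 at 1 mg/L (2659 unadjusted), 21 at 4 mg/L and 3631 apart; fewer libraries are apart more easily. Leaving out 1 library gave 1 (without control 2) to 32 genes (without 1 mg/L library 3) for all doses, 0 to 20 alike, 1 to 3 among the doses, 0 to 11 at 1 mg/L, 14 to 106 at 4 mg/L and 677 to 1848 apart, and 0 at 0.1 mg/L.

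The replicate number as a block gave 720 called genes for all doses, 453 higher and 267 lower, 445 alike, 15 among the doses and 2, 299 and 1094 at 0.1, 1 and 4 mg/L. Among the genes it called were apoa1a (adjusted p = 0.00116), gatm (0.0141), fbxo32 (0.0179), abca1b (0.0202), CT826376.1 (0.0216) and akap12a (0.024). The numbers were taken to pair the dose libraries with each other. With controls the pairs numbered 2 did not deviate together, so that pairing against control is a hint from the data. Of the 12 libraries 11 correlated best with one of their own number, and 7 did so within every other group. Over the 101 genes run under the alternatives, 0 values reversed. Most of these genes were picked for a low p in the same data, which makes that likely. Other list members named in the text were not run.

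Depths of 21.95 to 34.22 M counts limit what can be said of genes near 0 in the controls, such as lhb, vtg1 and f13a1a.1. With 3 controls, 1 of which (control 2) ended 12 of the 13 calls when left out, the calls at adjusted p near 0.05 are the least firm.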

Other observations

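In the mean of the doses, edgeR called 0 genes in each list named here. DESeq2, limma-voom and the fit with the replicate block were not counted by list. Of 59 tested genes of the cell cycle and replication 59 were above 0, with a median log2 fold change of 0.39. At an unadjusted p under 0.05, 18 of the list were higher, against 5.82% of all genes tested. The lowest p of the list belonged to chek1, a kinase of the replication checkpoint, at 0.53 (adjusted p = 0.244). The list varied between libraries of a group: its median centred level was -0.09, -0.22 and -0.53 in the controls, 0.48, 0.00 and -0.18 at 0.1 mg/L, 0.41, 0.06 and -0.43 at 1 mg/L and 0.36, 0.18 and -0.02 at 4 mg/L, and library 3 was lowest in every group. Erythroid markers had a median of 0.28, with 28 of 32 above 0, and alas2, which starts heme synthesis in red cells, stood at 0.87 (adjusted p = 0.165). Cholesterol synthesis had a median of 0.27 over 25 genes, by dose 0.42, 0.37 and 0.05 and 0.41 without the 4 mg/L group, with mvda lowest in p at 0.83 (adjusted p = 0.214). Kidney markers had a median of 0.30 over 28 genes, led by the transcription factor gene hnf1ba at 0.72 (adjusted p = 0.223).

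Epidermal markers had a median of -0.18 (-0.10 without control 2), with 39 of 47 below 0. The circadian clock list had -0.15 (-0.06 without control 2), with 36 of 45 below 0 and nfil3-6, a clock-controlled repressor, at -0.45 (adjusted p = 0.204). Cytosolic ribosomal proteins (-0.05 over 83 genes), the proteasome (0.04 over 41), nuclear oxidative phosphorylation (0.02 over 82), the thyroid axis (0.04 over 21), interferon and antiviral genes (-0.05 over 30) and heart muscle (0.07 over 22) had medians close to that of all genes, each of which changed sign in at least 1 of the 3 fits that leave out a control; for ribosomal proteins it ran from -0.23 without control 1 to 0.14 without control 3. Among single genes with low p, ifit14, an interferon-induced gene, stood at 2.66 (adjusted p = 0.134), and scg5, a chaperone of neuroendocrine cells, at -1.87 (adjusted p = 0.139). hamp, the iron hormone hepcidin, had -0.93, 0.05 and -2.69 by dose and a mean of -1.19 (adjusted p = 0.134).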
